A study of Mus musculus with 12 samples.

Results

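Carbonic anhydrase mRNA was followed in the livers of 24 h-fasted mice of 3 genotypes, with 4 livers in each. The genes described are Car1, Car2, Car3, Car4, Car5a, Car8, Car12, Car13 and Car14, which are 9 of the 16 carbonic anhydrase genes and of the 56748 genes in the table. They were chosen by name after their counts in the 3 genotypes had been seen, so their own differences between genotypes are given as a description and without the p-values of single genes. Counts of members past a threshold are a description too. The first genotype (WT here) is labelled CPT1A/1B/2 triple floxed control (the study's text describes the controls of the double knockout line as floxed for Atf3 and Cpt2, and which controls were sequenced was not settled here), the second (SKO) is a CPT2 liver-specific KO, and the third (DKO) is an ATF3;CPT2 liver-specific double KO. The knockouts were made by breeding floxed mice to mice with Cre under the albumin promoter, which is active in hepatocytes. CPT2 is the enzyme that releases long-chain acyl groups from carnitine inside mitochondria for oxidation, and ATF3 is a transcription factor of the stress response. The labels give no age, sex or batch of single mice, and the study describes the mice of this experiment as male.

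Carbonic anhydrases speed the exchange of CO2 and water with bicarbonate and a proton. The catalytic forms hold a zinc ion in the active site by histidine side chains, and they differ mainly in where in the cell they sit. In hepatocytes the mitochondrial form CAR5A supplies bicarbonate to pyruvate carboxylase and carbamoyl phosphate synthetase, which open gluconeogenesis and the urea cycle. CAR1, CAR2, CAR3 and CAR13 are cytosolic, with CAR2 among the fastest and CAR3 among the slowest of the catalytic forms. CAR4, CAR12 and CAR14 are bound to the cell membrane with the active site outside. CAR8 has lost the catalytic activity and binds the inositol trisphosphate receptor.

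The coding stretch around the first zinc-binding histidines is shown because it is the part of the gene that separates CAR8 from the rest. Each run is 21 bases of the GENCODE M21 transcript on GRCm38, 5′ to 3′ on the coding strand, with capitals for the codons at the places of the first pair of zinc-binding histidines.
Car5a: cagtttCATttcCACtgggga
Car3: caattcCATcttCACtggggc
Car2: cagtttCACtttCACtggggc
Car1: cagttcCATtttCACtggggc
Car13: cagttcCATttgCACtggggg
Car8: gaagttAGAtttCACtgggga
Car14: cagctcCACctgCACtggggt
Car4: cagttgCACctgCACtggtca
Car12: cagctgCACttgCACtggggg
Histidine codons (CAT or CAC) stood at both places in 8 of the 9 genes. In Car8 the first place held AGA, an arginine codon, and the second held CAC. These stretches lie in coding exons, at chr8:121927140-121927160 on the minus strand in exon 3 for Car5a, chr3:14866844-14866864 on the plus strand in exon 3 for Car3, and chr3:14895063-14895083 on the plus strand in exon 3 for Car2. They lie at chr3:14776275-14776295 on the minus strand in exon 4 for Car1, chr3:14650700-14650720 on the plus strand in exon 3 for Car13, and chr4:8221607-8221627 on the minus strand in exon 3 for Car8. For the membrane forms they lie at chr3:95900303-95900323 on the minus strand in exon 4 for Car14, chr11:84964161-84964181 on the plus strand in exon 4 for Car4, and chr9:66747641-66747661 on the plus strand in exon 4 for Car12.

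The count table places the genes by its own coordinates, which are not those of GRCm38 and for which it names no build. Car13 (ENSMUSG00000027555), Car1 (ENSMUSG00000027556), Car3 (ENSMUSG00000027559) and Car2 (ENSMUSG00000027562) lie in that order within 259 kb of chromosome 3, at chr3:14706787-14728062, chr3:14831276-14873428, chr3:14928572-14937583 and chr3:14951333-14965830. Car14 (ENSMUSG00000038526) is at chr3:95805080-95812003, Car8 (ENSMUSG00000041261) at chr4:8143362-8239041 and Car5a (ENSMUSG00000025317) at chr8:122642865-122671643. Car12 (ENSMUSG00000032373) is at chr9:66620968-66674127 and Car4 (ENSMUSG00000000805) at chr11:84848612-84856870.

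Between 14710304 and 20030055 reads were counted on genes per liver, and a count of 0 therefore allows up to 3 counts, or 0.150 to 0.204 CPM (CPM being counts scaled to library size). Cpt2 stood at 199 to 250 CPM in WT, 109 to 159 CPM in SKO and 99.9 to 125 CPM in DKO livers, and Atf3 at 1.11 to 2.14 CPM in WT and 14.5 to 54.0 CPM in SKO livers. In the livers labelled DKO, Atf3 was at 7.91, 10.8, 13.5 and 0.266 CPM, so that DKO 1 to 3 lay above every WT liver and below every SKO liver. Its log2 difference was -1.91 (SE 0.73, adjusted p = 0.701, edgeR) for DKO from SKO and 2.38 (SE 0.78, adjusted p = 0.0796) for DKO from WT, neither past the threshold. The counts are of the whole gene and not of the deleted part, so the low level of Atf3 that would check the label DKO was seen in DKO 4 alone, and the deletion in DKO 1 to 3 could not be checked here. By RT-qPCR of liver, the study reports that double knockouts of both sexes lacked the rise of Atf3 mRNA that loss of Cpt2 brings. Whether the livers measured so include those sequenced was not settled here. A pair of livers, SKO 3 and DKO 4, had 18063 and 20855 counts of Xist and 2 and 0 Y-linked counts. The other 10 livers, all WT livers among them, had at most 19 counts of Xist and 2741 to 4294 Y-linked counts. SKO 3 and DKO 4 thus have the pattern of female livers, although the study describes these mice as male. Each knockout group holds such a liver and WT does not, so sex and genotype are partly mixed in each difference from WT. DKO 4 stood apart from DKO 1 to 3 in most of what follows, so DKO values are given with and without it. The labels do not say in words that each library is from a different mouse, so p-values measure the spread between these libraries.

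In WT livers the carbonic anhydrase with the highest level per length was Car3, at 109.6 ± 10.7 FPKM (mean ± SD, n = 4, reads scaled by gene length and library size as the authors deposited them). Car5a followed at 51.0 ± 5.58 FPKM, Car8 at 19.8 ± 2.11, Car14 at 14.5 ± 1.96, Car1 at 3.37 ± 1.17 and Car2 at 3.01 ± 0.515. The ranges of neighbours in this order did not overlap over the 4 livers except for Car8 and Car14, which came within 17.1 to 22.1 and 12.7 to 17.3 FPKM, and for Car1 and Car2. Car13, Car4 and Car12 were each at or below 0.401 FPKM in every WT liver.
In SKO livers the order was different, with Car2 first at 11.9 ± 5.89 FPKM, Car3 at 5.75 ± 2.55, Car8 at 3.56 ± 0.174, Car14 at 2.38 ± 1.19, Car5a at 1.53 ± 1.65 and Car1 at 0.150 ± 0.160. Neighbours from Car2 down to Car5a overlapped in range, so that part of the order is not fixed by 4 livers. In DKO 1 to 3 the same genes led, with 4.00 to 19.9 FPKM of Car3 and 6.31 to 12.0 FPKM of Car2.

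Car5a, the mitochondrial form, was at 59.3, 68.3, 59.5 and 73.8 CPM in WT livers 1 to 4, at 5.19, 0.921, 0.572 and 1.29 CPM in SKO livers and at 2.56, 1.72, 3.05 and 67.4 CPM in DKO livers. Each of the 4 SKO livers and DKO 1 to 3 lay far below the lowest WT liver, and DKO 4 lay within the WT range. The mean in SKO livers was 3.06% of the WT mean, the lowest share of the 6 members with enough reads for the test. On the log2 scale of the edgeR fit the difference of SKO from WT was -5.09 (SE 0.50), and that of DKO from WT was -1.78 (SE 1.03) with DKO 4 and -4.71 (SE 0.19) without it.

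Car3 was at 276, 291, 292 and 342 CPM in WT livers, at 22.5, 6.86, 13.8 and 20.8 CPM in SKO livers and at 54.8, 11.3, 28.4 and 1250.2 CPM in DKO livers. The SKO livers and DKO 1 to 3 were again all below WT and overlapped each other, whereas DKO 4 was above every WT liver, at 416% of the WT mean. SKO livers held 5.33% and DKO 1 to 3 held 10.5% of the WT mean. The fitted log2 difference of SKO from WT was -4.24 (SE 0.32), and that of DKO from WT was 0.19 (SE 1.18) with DKO 4 and -3.24 (SE 0.42) without it, so this one liver turned its sign.

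Car2 was the member that stood higher in the knockouts. It was at 7.69, 6.52, 5.53 and 8.19 CPM in WT livers, at 20.4, 14.9, 46.5 and 30.1 CPM in SKO livers and at 14.7, 16.5, 28.3 and 15.1 CPM in DKO livers. All 8 knockout livers lay above the highest WT liver, DKO 4 included, and the SKO and DKO ranges overlapped. The SKO mean was 401% of the WT mean. The fitted log2 difference was 1.99 (SE 0.31) for SKO from WT and 1.43 (SE 0.24) for DKO from WT, or 1.51 (SE 0.24) without DKO 4.

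Car1 had few reads, with 54, 54, 59 and 109 counts in WT livers, 7, 0, 2 and 3 counts in SKO livers and 12, 5, 11 and 166 counts in DKO livers. The SKO livers and DKO 1 to 3 were below all WT livers, and DKO 4 was above them, at 8.84 CPM against 5.99 CPM in the highest WT liver. The fitted log2 difference of SKO from WT was -4.51 (SE 0.57), and that of DKO from WT was -0.62 (SE 0.90) with DKO 4 and -3.01 (SE 0.38) without it. Car13 reached 17 counts in WT 1 and 6 counts or fewer in each of the other 11 livers, too few for the test.

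Car8, the form without catalytic activity, was at 71.6, 63.3, 81.1 and 76.3 CPM in WT livers, at 12.7, 13.1, 14.2 and 13.2 CPM in SKO livers and at 12.6, 14.6, 15.0 and 93.0 CPM in DKO livers. The 4 SKO livers lay close together, with a mean of 13.3 ± 0.626 CPM, and DKO 1 to 3 lay beside them at 14.1 ± 1.28 CPM (mean ± SD, n = 3). DKO 4 was above the highest WT liver. The fitted log2 difference of SKO from WT was -2.46 (SE 0.12), and that of DKO from WT was -1.09 (SE 0.61) with DKO 4 and -2.37 (SE 0.12) without it.

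Among the membrane forms, Car14 was at 33.9, 42.1, 34.3 and 30.8 CPM in WT livers, at 6.36, 2.46, 9.51 and 5.16 CPM in SKO livers and at 10.2, 6.06, 6.86 and 18.8 CPM in DKO livers. Every knockout liver was below every WT liver, and DKO 4, the highest of them, stood at 53.3% of the WT mean. The fitted log2 difference was -2.59 (SE 0.31) for SKO from WT and -1.73 (SE 0.33) for DKO from WT, or -2.18 (SE 0.19) without DKO 4. Car4 had 13 counts in WT 4 and at most 2 in any other liver, and Car12 had 5 counts in WT 4, 2 in DKO 3 and 0 in the other 10 livers. At this depth no difference of Car4 or Car12 between genotypes was detectable.

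**Figure D1:**
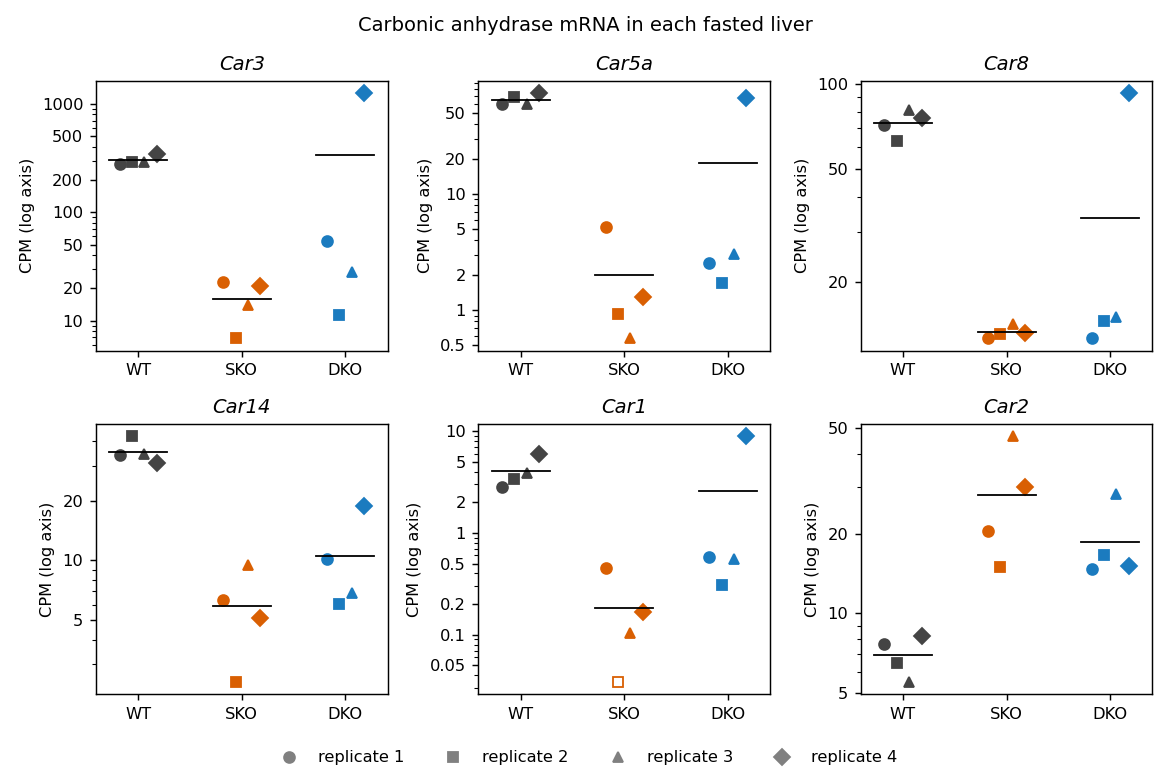
CPM of 6 carbonic anhydrases (log axes) in each WT, SKO and DKO liver, with a symbol for each replicate and a line at the mean of the 4 livers; the open square is SKO 2, which had 0 counts of Car1 and is drawn at the foot of the panel. DKO 4 lies within or above the WT livers for Car3, Car5a, Car8 and Car1, between WT and the other DKO livers for Car14, and with the knockouts for Car2.

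The first comparison asks what the loss of Cpt2 in hepatocytes does to the fasted liver. Of the 9 members, 6 passed the filter on low counts, and all 6 were past an adjusted p-value of 0.05 in SKO against WT, 5 of them lower and 1 higher, where 32.1% of all genes tested were (15.4% lower and 16.7% higher). The ranges of the 4 SKO and 4 WT livers did not overlap for these 6, as for 33.2% of all genes tested. Because the members were chosen with these differences known, nothing is read from these counts.

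In the livers labelled as lacking ATF3 as well (DKO against WT), where Atf3 itself was not below WT in DKO 1 to 3, 2 of the 6 were past the threshold, Car2 higher and Car14 lower, beside 10.5% of all genes tested (6.06% higher and 4.39% lower). The ranges did not overlap for these same genes, beside 16.8% of all genes. Without DKO 4, 6 of 6 were past the threshold, 5 lower and 1 higher, beside 35.9% of all genes (17.5% lower and 18.4% higher), and DKO 1 to 3 did not overlap WT for any of the 6, beside 41.7%. The count was 0 without WT 2 and 1 without WT 1, DKO 1 or DKO 3. Both knockouts were compared with the same 4 WT livers, so the likeness of their differences from WT is not an independent result.

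The livers labelled DKO were compared with SKO for what the loss of ATF3 changes when CPT2 is lost, with the deletion not checked in DKO 1 to 3. None of the 5 members tested (Car3, Car5a, Car8, Car2 and Car14) was past an adjusted p-value of 0.05 with edgeR, beside 0.0209% of all genes, and 3 were at an unadjusted p-value under 0.05. DESeq2 gave no p-value for Car3, Car5a and Car8, and for Car2 and Car14 neither an adjusted nor an unadjusted p-value under 0.05. The fitted log2 differences and their errors were large, at 4.46 (SE 1.37) for Car3 and 3.32 (SE 1.25) for Car5a. Those of Car8, Car14 and Car2 were 1.40 (SE 0.61), 0.87 (SE 0.45) and -0.56 (SE 0.34). Without DKO 4 they were 1.00 (SE 0.47) for Car3, 0.33 (SE 0.62) for Car5a, 0.09 (SE 0.15) for Car8, 0.40 (SE 0.38) for Car14 and -0.49 (SE 0.36) for Car2, and 0 of 5 were past the threshold, beside 0.103% of all genes. The error was smallest for Car8 and several times wider for Car5a, so a missed threshold does not show that the genotypes were alike. Among the 6 livers with Y-linked counts alone the log2 differences were 0.94 (SE 0.51) for Car3, 0.03 (SE 0.56) for Car5a, 0.13 (SE 0.17) for Car8, 0.75 (SE 0.34) for Car14 and -0.12 (SE 0.29) for Car2, with 0 past the threshold. Car1 was too low for the test in this comparison, at 0.104 to 0.454 CPM in the SKO livers with counts and 0.306 to 0.579 CPM in DKO 1 to 3.

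**Figure D2:**
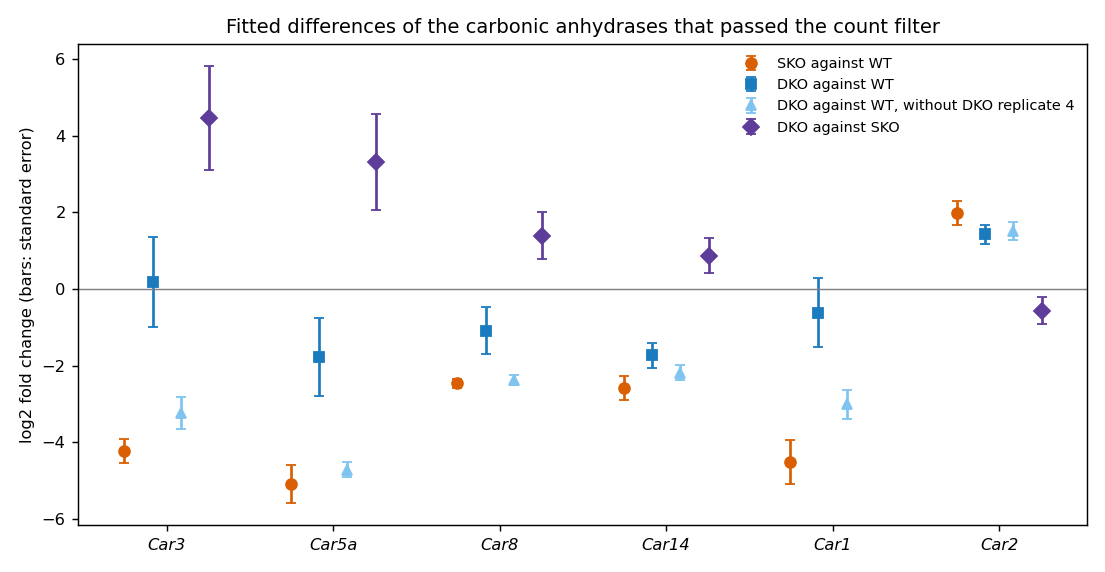
Fitted log2 fold change with its standard error for the 6 carbonic anhydrases that passed the count filter, in SKO against WT, DKO against WT with and without DKO replicate 4, and DKO against SKO (Car1 not tested there). Without DKO 4 the DKO values run from -4.71 for Car5a to 1.51 for Car2, with the sign of the SKO values for all 6 genes. All 6 lie closer to 0 than the SKO values, by the most for Car1 (-3.01 beside -4.51) and Car3 (-3.24 beside -4.24) and by the least for Car8 (-2.37 beside -2.46).

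The make-up of the family followed from these levels. The FPKM of the 16 carbonic anhydrase genes summed to between 187 and 227 in the WT livers, between 14.7 and 33.8 in the SKO livers, between 19.3 and 36.8 in DKO 1 to 3, and 562 in DKO 4. Car3 made up 53.9 ± 0.992% of this sum in WT livers and 22.0 ± 7.15% in SKO livers, with 20.8 to 54.0% in DKO 1 to 3 and 81.9% in DKO 4. The share of Car5a was 25.1 ± 1.17% in WT, 6.02 ± 5.71% in SKO, 6.47 ± 0.972% in DKO 1 to 3 and 9.44% in DKO 4. Car2 made up 1.49 ± 0.235% in WT livers, from 31.0 to 58.8% in SKO livers and from 17.1 to 37.2% in DKO 1 to 3. In DKO 4 it made up 1.17%, although its level was that of the other knockouts. Without Car3 the sum was 93.5 ± 6.61 FPKM in WT livers, 20.2 ± 6.78 in SKO livers, 18.1 ± 3.52 in DKO 1 to 3 and 102 in DKO 4. These shares are of mRNA per length, in which a form without catalytic activity counts like the rest.

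**Figure D3:**
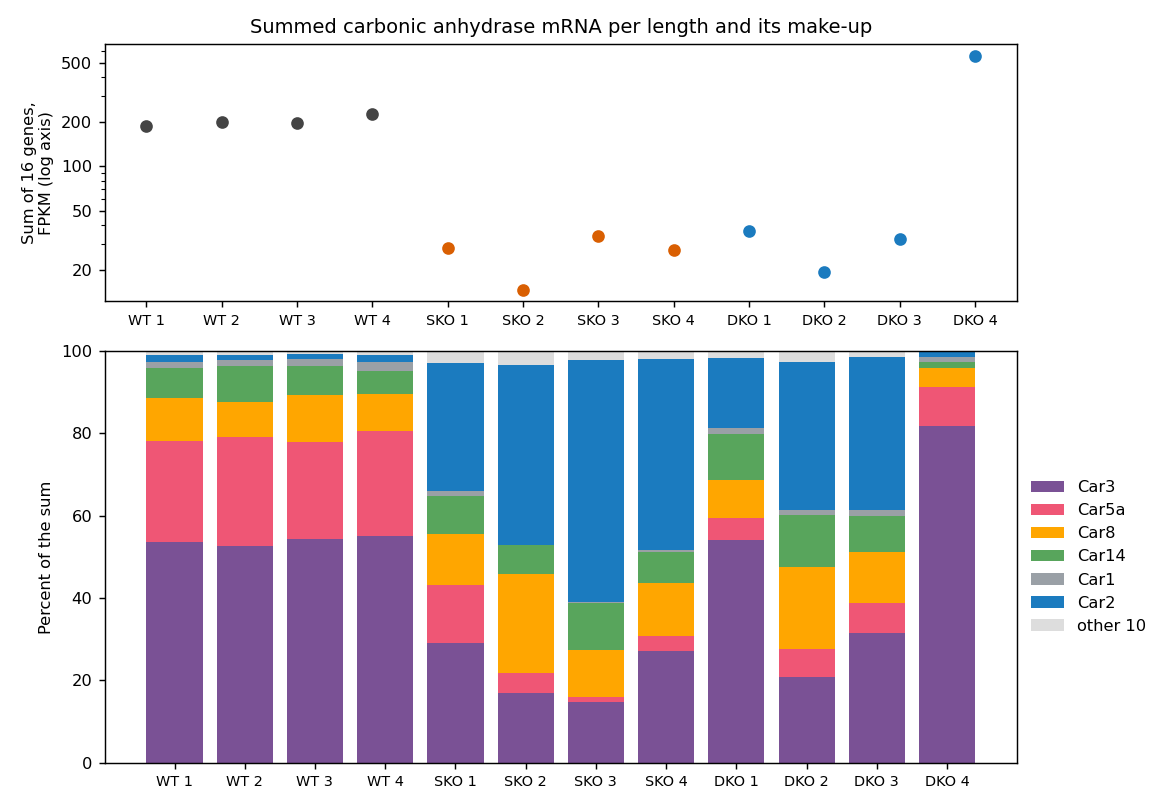
Above, the summed FPKM of the 16 carbonic anhydrase genes in each liver (log axis); below, the percent of that sum from each of 6 genes and from the other 10 together. Car3 and Car5a fill most of each WT bar, Car2 takes 17.1 to 58.8% in the SKO livers and DKO 1 to 3, and Car3 takes 81.9% in DKO 4.

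Summed markers of hepatocytes, their zones and cholangiocytes were lower in SKO livers and DKO 1 to 3 than in DKO 4 and every WT liver (for hepatocytes with Alb counted, for cholangiocytes with most of the sum from Spp1), and in whole liver fewer cells of a type and less RNA per cell cannot be told apart. The summed level of 6 hepatocyte markers such as Alb and Ttr was 67740 to 83097 CPM in WT, 33083 to 59068 CPM in SKO and 37942 to 41942 CPM in DKO 1 to 3, and 88745 CPM in DKO 4. Alb alone made up 65.1 to 83.6% of this sum, and without it the sum was 15890.1 to 18219 CPM in WT, 10559 to 17316 CPM in SKO, 11909 to 13489 CPM in DKO 1 to 3 and 14580.4 CPM in DKO 4, which was then below WT. In SKO against WT 5 of these 6 fell, beside the 15.4% of all genes called lower, and the other, Apoa1, had its lowest count of the 12 livers, 96432, in DKO 4. Of 10 pericentral hepatocyte markers 8 fell and none rose, and of 8 periportal ones 6 fell and 1 rose, beside 15.4% of all genes lower and 16.7% higher. The pericentral sum was 12008 to 16480 CPM in WT, 5809 to 10538 CPM in SKO, 7877 to 10305 CPM in DKO 1 to 3 and 15075 CPM in DKO 4. The periportal sum was 14294 to 17253, 7768 to 10457, 7782 to 10483 and 14448 CPM in the same order, so that DKO 4 lay within WT for both. The sum of 9 male-biased liver genes was 9113 to 12597 CPM in WT livers, 336 CPM in SKO 3 and 397 CPM in DKO 4, and it was below WT in the other knockout livers as well, at 3020 to 6745 CPM in SKO and 3645 to 7308 CPM in DKO. Of the 9, 3 were called lower and 0 higher in SKO against WT, and 2 lower and 0 higher in DKO against WT, beside 15.4% and 4.39% of all genes lower. Serpina1e, Cyp2d9 and Mup20 gave most of the WT counts, and the members did not all go one way, since Cyp4a12a had 3852 to 6016 counts in these 6 knockout livers against 2481 to 3481 in WT. That of 9 female-biased ones was 908 CPM in SKO 3 and 1865 CPM in DKO 4 against at most 114 CPM in WT livers. SKO 1 and SKO 2, at 127 and 226 CPM, were above WT too, while SKO 4 and DKO 1 to 3 lay between 33.6 and 103 CPM. SKO 3 held the most Car2, Car8 and Car14 of the SKO livers and the least Car5a, and for each of these but Car2 it lay far below WT. The part of these markers in the differences of the carbonic anhydrases was not tested.
CAR1 and CAR2 are abundant in red cells, CAR4 in capillary endothelium, and CAR3 in muscle and fat. The erythroid markers, of which 8 of 9 were in the table, summed to 114 to 251 CPM in WT, 158 to 534 CPM in SKO and 128 to 715 CPM in DKO livers. The members did not all go one way. Of 6 tested, 2 were called higher and 1 lower for SKO against WT, and 0 higher and 1 lower for DKO against WT. Alas2 stayed at or below 582 counts in every SKO liver, where the lowest WT liver had 646. Its DKO counts, from 273 up to 711, overlapped those of WT. Hbb-bs reached 4998 counts among SKO livers and 1919 among WT livers, with ranges that overlapped. SKO 3, with the most Car2, had the lowest erythroid sum among the SKO livers, and DKO 3, with the most Car2 of its group, had the highest. The 8 endothelial markers were present in all livers, at 166 to 362 CPM in sum, while Car4 was near 0. The 8 macrophage markers summed to 196 to 397 CPM in WT, 193 to 463 CPM in SKO, 117 to 183 CPM in DKO 1 to 3 and 390.4 CPM in DKO 4, so that DKO 1 to 3 lay below every WT liver in the sum. Clec4f, Cd5l and Csf1r gave most of the counts, and Cd68 went the other way, with 87 to 213 counts in WT, 466 to 1070 in SKO, 440, 190 and 491 in DKO 1 to 3 and 178 in DKO 4. The 7 stellate cell markers summed to 196 to 236 CPM in WT, 274 to 371 CPM in SKO and 257 to 315 CPM in DKO livers, where all 8 knockout livers, DKO 4 included, lay above WT in the sum. Of the 7, 1 was called higher in SKO against WT and 0 in DKO against WT, beside 16.7% and 6.06% of all genes. Dcn had the most counts of the 7, while Rgs5, with 458 to 620 counts in SKO and 359 to 719 in WT livers, overlapped. The part of these markers in the differences was not tested. The 6 adipocyte markers summed to at most 1.29 CPM and the 7 skeletal muscle markers to at most 1.48 CPM in any liver, with Lep at 0 in all of them, beside up to 1250.2 CPM of Car3. The sum of 7 cholangiocyte markers was 27.9 to 33.3 CPM in WT, 7.41 to 14.5 CPM in SKO and 9.60 to 18.7 CPM in DKO 1 to 3, with DKO 4 within WT at 31.3 CPM. Most of this sum was Spp1, with 515 counts in DKO 4 and 349 to 403 in WT livers, while Sox9 had 15 counts in DKO 4 against 58 to 108 in WT. Of the 4 tested 2 fell in SKO against WT (Spp1 and Sox9), and Epcam, with 10 to 26 counts in SKO and 15 to 28 in WT livers, overlapped. The part of these markers in the differences of the carbonic anhydrases is likewise untested.

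Within the cluster on chromosome 3, Car1 and Car3 were lower in SKO livers and Car2, the next gene on, was higher. The nearest genes outside the cluster with reads, chosen after their values were seen, were Lrrcc1, E2f5 and Rbis. Their mean levels were 3.11, 5.59 and 17.2 CPM in WT livers and 3.66, 6.44 and 23.0 CPM in SKO livers. A long noncoding RNA, ENSMUSG00000120173, overlaps the start of Car3 on the opposite strand and had 185, 148, 162 and 208 counts in WT livers, 6, 4, 0 and 2 counts in SKO livers and 12, 8, 10 and 191 counts in DKO livers. It had the same livers high and low as Car3, except that in DKO 4 it stood within the WT range, at 10.2 CPM, where Car3 was at 1250.2 CPM. No source used here says whether the counting used strand, so reads of the overlapping ends cannot be told apart. The same holds for Car14 and Aph1a, which had 16525 counts over the 12 livers on the opposite strand, and for Car5a and BC048644, which had 732.

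The other 7 carbonic anhydrase genes (Car5b, Car6, Car7, Car9, Car10, Car11 and Car15) were low in all livers, and 2 of them passed the count filter. Car5b, the second mitochondrial form, had 44, 65, 39 and 45 counts in WT livers, 14, 10, 14 and 8 counts in SKO livers and 13, 11, 15 and 61 counts in DKO livers. The knockout livers other than DKO 4 were all below WT. It fell by 2.13 on the log2 scale in SKO against WT (SE 0.33, adjusted p = 5.46e-04, edgeR). Car7, a cytosolic form, was at 0.660 to 1.61 CPM in WT and 0.307 to 0.714 CPM in SKO livers, ranges that overlapped, and fell by 1.25 (SE 0.40, adjusted p = 0.0316, edgeR). In DKO against WT neither passed, with log2 differences of -1.08 (SE 0.54, adjusted p = 0.216) for Car5b and -1.79 (SE 0.51, adjusted p = 0.0525) for Car7. Without DKO 4 both did, at -2.03 (SE 0.33, adjusted p = 7.79e-04) and -2.43 (SE 0.49, adjusted p = 0.00287). Car11 ranged from 7 to 15 counts in WT livers, 1 to 3 in SKO livers and 1 to 13 in DKO livers, Car9 reached 24 counts in WT 4, Car15 had 1 to 11 counts, and Car6 and Car10 had 1 count each over all livers.

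Genes that use or move the products of the reaction were read beside the family, in lists drawn up by function. Of 9 enzymes that use bicarbonate, 5 passed in SKO against WT, 2 higher and 3 lower, beside 32.1% of all genes tested, and the median log2 difference of the list was -0.40, where that of all genes tested was 0.03. Acacb, the acetyl-CoA carboxylase at mitochondria whose product restrains carnitine palmitoyltransferase 1, rose from 53.9 ± 6.70 to 258 ± 42.4 CPM (log2 2.25, SE 0.16, adjusted p = 2.99e-06, edgeR). Cad, which starts pyrimidine synthesis, rose by 0.82 (SE 0.17, adjusted p = 0.00356). Mccc1, of leucine breakdown, fell by 1.08 (SE 0.14, adjusted p = 1.71e-04). The subunits of propionyl-CoA carboxylase fell too, Pcca by 0.75 (SE 0.14, adjusted p = 0.00214) and Pccb, named because only 5 passed, by 0.53 (SE 0.12, adjusted p = 0.00514).
The enzymes that CAR5A is known to serve, named here after their values were seen, did not pass. Pcx, pyruvate carboxylase, was at 1002 ± 145 CPM in WT and 797 ± 194 CPM in SKO livers (log2 -0.33, SE 0.19, adjusted p = 0.200, edgeR). Cps1, carbamoyl phosphate synthetase, was at 6595 ± 1063 and 6485 ± 1332 CPM (log2 -0.03, SE 0.18, adjusted p = 0.932), with ranges that overlapped.

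Of 17 bicarbonate transporters 8 were tested and 2 passed in SKO against WT, a share below the 32.1% of all genes. Slc4a4, the sodium bicarbonate cotransporter, rose by 0.70 (SE 0.17, adjusted p = 0.00739, edgeR), and Slc26a1, an anion exchanger, fell by 1.31 (SE 0.24, adjusted p = 0.00155). The median of the 8 was -0.14. Of 17 proton and monocarboxylate transporters 13 were tested and 3 passed, all higher, beside 16.7% of all genes called higher, with a median of 0.16. Slc16a1, which carries lactate and ketone bodies, rose from 40.3 ± 4.98 to 95.1 ± 17.1 CPM (log2 1.24, SE 0.16, adjusted p = 1.37e-04, edgeR). Its relatives Slc16a13 and Slc16a6 rose by 1.26 (SE 0.28, adjusted p = 0.00513) and 1.19 (SE 0.35, adjusted p = 0.0235).
In DKO against WT 5 of the 31 genes tested in these lists and among the other 7 carbonic anhydrases (Car5b and Car7 there) passed, all higher, namely Acacb, Slc4a4, Slc16a1, Slc16a6 and Slc16a13, beside 10.5% of all genes, and 15 passed without DKO 4, Car5b and Car7 included, beside 35.9%. Without any 1 of the other 7 livers 2 passed. In DKO against SKO none of 29 of the same genes passed with edgeR or DESeq2, with 2 at an unadjusted p-value under 0.05 in edgeR and 2 in DESeq2.

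**Figure D4:**
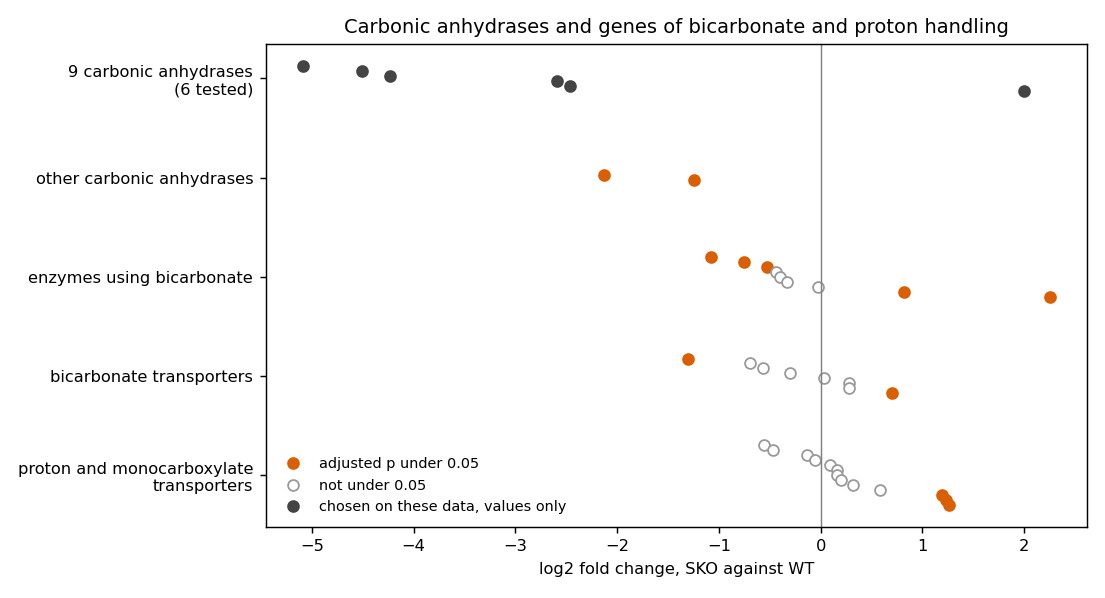
Log2 fold change of SKO against WT for every gene tested among the carbonic anhydrases described (dark points, values only), the other carbonic anhydrases, and genes that use or transport bicarbonate, protons and monocarboxylates (filled where the adjusted p-value was under 0.05). The carbonic anhydrases described span -5.09 to 1.99. Of the other carbonic anhydrases Car5b lies at -2.13 and Car7 at -1.25, and the lists by function lie between -1.31 and 2.25.

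Across the 12 livers the log2 CPM of Car3, Car5a, Car8 and Car14 went together, with Pearson's r from 0.877 to 0.953 over their 6 pairs (Spearman's rho 0.664 to 0.902), and Car2 went against each, with r from -0.818 to -0.670 (rho -0.734 to -0.462). The livers are 3 genotypes and DKO 4 lies far from its group, so these values are a description of that arrangement. Of the 9382 protein-coding genes with a mean of at least 5 CPM, those most like Car3 by the same measure were Cyp4f14 (r = 0.989), Gulo (0.975) and Gamt (0.974). Those most like Car5a were Bco2 (0.989), Adra1b (0.987) and Sardh (0.986), those most like Car8 were Glo1 (0.995), Nit2 (0.994) and B2m (0.993), and those most like Car14 were Abat (0.983), Tmie (0.983) and Masp1 (0.973). Cyp4f14, the closest to Car3, was at 89.2 CPM in WT, 18.8 in SKO, 25.8 in DKO 1 to 3 and 207 in DKO 4. For Car2 they were Pnldc1 (0.944), Abcc9 (0.936) and Cd36 (0.910), the fatty acid transporter, which was at 38.2 CPM in WT, 283 in SKO, 144 in DKO 1 to 3 and 149 in DKO 4.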

How the data were processed

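Total RNA of flash-frozen liver was sequenced by Novogene for 12 livers, with the genotype of each given by its label. The authors deposited a table of raw read counts for Ensembl genes, not normalized, and FPKM of the same genes, scaled by the gene length in the table. The submitters' processing notes name HISAT2, GRCm38 and mm10, but the starts of 14 of the 16 carbonic anhydrase genes in the table lie over 10000 bases from GRCm38. The counting program and the use of strand are not given in the sources used here. Deposited tables of the authors' own log2 fold changes and p-values were not used. No library was a copy of another of its genotype (chi-square per degree of freedom at least 20.6).

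Each pair of genotypes was fitted with edgeR 4.0.16 in R 4.3.3 on the counts of the 8 livers compared (TMM, filterByExpr with a minimum count of 10, quasi-likelihood test, two-sided, Benjamini-Hochberg over all genes tested, threshold 0.05). The standard error of a log2 fold change is its size divided by the root of F. CPM were scaled by TMM over the 12 livers. On simulated counts the fit found 176 of 200 genes changed 4-fold among 14003 for SKO against WT, with 9 false calls, 166 among 14196 for DKO against WT, with 14, and 167 among 14079 for DKO against SKO, with 4. Standard errors include the spread between livers, and the limit that a count of 0 allows covers counting error only.

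The carbonic anhydrases and all lists were chosen with earlier results of these data known. Apart from these genes the text names Cpt2, Atf3 and Xist as checks, from each list the 4 genes or fewer of smallest p among those past the threshold in SKO against WT, and the 3 genes most like each member tested in all 3 comparisons by Pearson's r of log2 CPM (prior count 2). Pccb, Pcx, Cps1, the neighbours and overlapping genes of members, and single cell type markers are named beside this rule, after their values were seen. The alternatives were DESeq2 1.42.0, RLE normalization, no filter, a fit over all 12 livers, the replicate number as a block, each liver left out and the livers with Y-linked counts alone.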

Additional observations from a re-analysis of the deposited data

Results flagged for a closer look

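Sets of 4 livers, each a gene in a genotype, were read for the carbonic anhydrases, Cpt2 and Atf3, and 49 sets had any spread. In 13 of them, all of carbonic anhydrases, the highest liver was set apart from the nearest of the other 3. The gap was there more of the whole range than Dixon's 95% value allows. Chance gives about 1 in 20 where sets are independent, which genes of the same liver are not, and in 4 of the 13 (Car12 in both genotypes, Car6 and Car10) the other 3 livers were at 0, which meets the limit by construction. In 6 of the 13 this liver was DKO 4. It stood at 1250.2 CPM for Car3 (the others 11.3 to 54.8), 67.4 CPM for Car5a (1.72 to 3.05), 93.0 CPM for Car8 (12.6 to 15.0), 8.84 CPM for Car1 (0.306 to 0.579) and 3.25 CPM for Car5b (0.627 to 0.762). The sixth is Car10, at 0.0532 CPM from 1 count. DKO 4 had Xist counts and no Y-linked counts, and its hepatocyte markers summed to 88745 CPM, above every WT liver, but 14580.4 CPM without Alb, below them. SKO 3, the other liver with Xist counts, was not flagged for these genes, but it is of another genotype and cannot stand for DKO 4. The part of the sex pattern or of the hepatocyte markers in the values of DKO 4 was not tested.

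Car5a was at 5.19 CPM in SKO 1 and 0.572 to 1.29 CPM in the other SKO livers. Car2 was at 28.3 CPM in DKO 3 and 14.7 to 16.5 CPM in the other DKO livers. Car5b was at 4.11 CPM in WT 2 and 2.29 to 2.54 CPM in the other WT livers. The remaining 4 rest on few reads, namely Car4 in WT 4 at 0.714 CPM (13 counts), Car12 in WT 4 at 0.275 CPM (5 counts), Car12 in DKO 3 at 0.102 CPM (2 counts) and Car6 in DKO 2 at 0.0613 CPM (1 count).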

How the results depend on the processing

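The 6 carbonic anhydrases past the threshold in SKO against WT were 6 under DESeq2, RLE normalization, no filter, the replicate block and 1 fit over 12 livers, and 6 with any 1 liver left out. Their 78 refitted log2 differences kept sign and side of the threshold. The widest moves came without SKO 1, from -5.09 to -6.13 for Car5a and from -4.51 to -5.39 for Car1. The count over the other carbonic anhydrases and the lists, 12, was 10 to 13 with a liver left out. In DKO against WT the count of 2 was 0 to 6 with a liver left out (6 without DKO 4, 0 without WT 2, 1 without WT 1, DKO 1 or DKO 3), and that of the lists, 5, was 3 with the replicate block and 2 to 15 with a liver left out (15 without DKO 4). The log2 difference of Car3 from WT in DKO livers, 0.19, became -2.43 with the replicate block and lay between -3.24 (without DKO 4) and 0.59 with a liver left out. With the block those of Car5a, Car1 and Car8 moved too, from -1.78, -0.62 and -1.09 to -3.65, -1.79 and -1.73, none past the threshold. Of the 74 refits in that comparison 64 kept both sign and side, 5 lost the threshold with a liver left out (Car2 once and Car14 in the rest), 3 gained it (Car1, Car5a and Car8 without DKO 4) and 2 changed sign (Car3 with the block and without DKO 4, there past the threshold). DESeq2 gave no p-value for 4 of the 6 there (all but Car2 and Car14) nor for 3 of 5 in DKO against SKO. In DKO against SKO the counts of 0 stayed 0 under all settings run, only livers with Y-linked counts included. The log2 differences there moved with the block, from 4.46 to 1.93 for Car3, 3.32 to 1.90 for Car5a and 1.40 to 0.72 for Car8. Over all genes tested the replicate block gave 4111, 691 and 0 calls in place of 4576, 1510 and 3, DESeq2 gave 2508 for DKO against WT and 91 for DKO against SKO, no filter gave 35 and the livers with Y-linked counts 21 for DKO against SKO, and leaving out a liver gave 244 to 5253 for DKO against WT. The replicate numbers do not pair the livers, since deviations of same-numbered livers from their group means correlated at -0.435 to 0.157. With 4 livers a genotype, differences as small as their standard errors could not be resolved, and Car4, Car12 and Car13 had too few reads for any test.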
